A study of Mus musculus with 2 samples.

Results

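The genes described here encode the receptors through which GABA acts on G proteins, the glycine-gated chloride channels, and the receptors for acetylcholine, serotonin, noradrenaline and adrenaline, dopamine, histamine, adenosine, endocannabinoids and opioid peptides. They were chosen by gene symbol: protein-coding mouse genes named Gabbr1 or Gabbr2, Glra1 to Glra4 or Glrb, Chrm, Chrn, Htr, Adra or Adrb, Drd, Hrh, Adora, Cnr1 or Cnr2, or Oprd1, Oprk1, Oprl1 or Oprm1. The rule uses no measured value. It found 70 of the 21474 named protein-coding genes, and these 70 fall into 11 receptor classes.

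RNA was sequenced from 2 laser-captured pieces of cerebellar granule layer, each of 18000 square microns with a stated starting quantity of 50 cells. The tissue was adult, male and wild-type at 8 months, given as C57Bl6 in 1 label and as strain B6NCrl in another, and the labels name no treatment. Libraries were made from total RNA under a general Smart-seq protocol, which amplifies polyadenylated transcripts, and the submitters name the assay single cell RNA-seq although each library is an area of tissue. The libraries are biological replicates 1 and 2 with 1 shared donor label, so whether they come from 1 animal is not known, and all samples form 1 group with no contrast between conditions.

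Granule neurons are the small excitatory neurons that fill this layer. They receive mossy fibres and, from Golgi cells, GABA and glycine. GABA-B receptors, adenosine A1 receptors, CB1 cannabinoid receptors and opioid receptors mostly couple to inhibitory G proteins, and on axon terminals they are known for lowering transmitter release. CB1 is well known on the parallel fibres, the axons of granule neurons, where it responds to endocannabinoids released by Purkinje cells. Glycine receptors and nicotinic receptors are instead ion channels built from several subunits, so that 1 subunit alone does not define a channel.

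The total expected count was 20532709 in replicate 1 and 19939370 in replicate 2, of which 19962271 and 19261911 fell on genes. All 10 granule neuron markers examined were detected in both areas, with a summed level of 2962 TPM (a transcript level corrected for length and library size) in replicate 1 and 3223 TPM in replicate 2. The areas also held RNA of other cells. Marker sums in replicate 1 and replicate 2 were 54.1 and 36.5 TPM for Golgi cells and other inhibitory interneurons, 358.6 and 427.6 TPM for Purkinje cells, 630 and 588 TPM for astrocytes, 652 and 789 TPM for oligodendrocytes, and 105 and 78.7 TPM for microglia. The median over the 8 Purkinje cell markers was only 5.87 TPM by mean of both areas, so that sum rested on a few high genes. Endothelial markers gave 245 and 194 TPM, and blood markers gave 5040 and 390 TPM, the widest difference among these lists. A level in such an area therefore joins several cell types, and fewer cells of a type and less RNA per cell cannot be told apart.

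Few of the receptor genes were measurable. A gene was called detected in an area with at least 1 TPM and an expected count of at least 5. By this limit 9 of the 70 genes (12.9%) were detected in both areas, against 50.4% of all protein-coding genes. A further 7 genes (10%) were detected in 1 area only, against 4.02% of protein-coding genes. Another 27 genes were below the limit, and 27 (38.6%) had no count in either area, against 29.4% of protein-coding genes. All receptor genes together held 25263 counts in replicate 1 and 29709 counts in replicate 2, or 0.127% and 0.154% of gene counts. Their summed level was 353.4 TPM in replicate 1 and 414.4 TPM in replicate 2 (383.9 ± 43.1 TPM, SD, n = 2). Of that sum, 94.8% came from only 5 genes, Cnr1, Glrb, Gabbr1, Adora1 and Gabbr2.

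**Figure D1:**
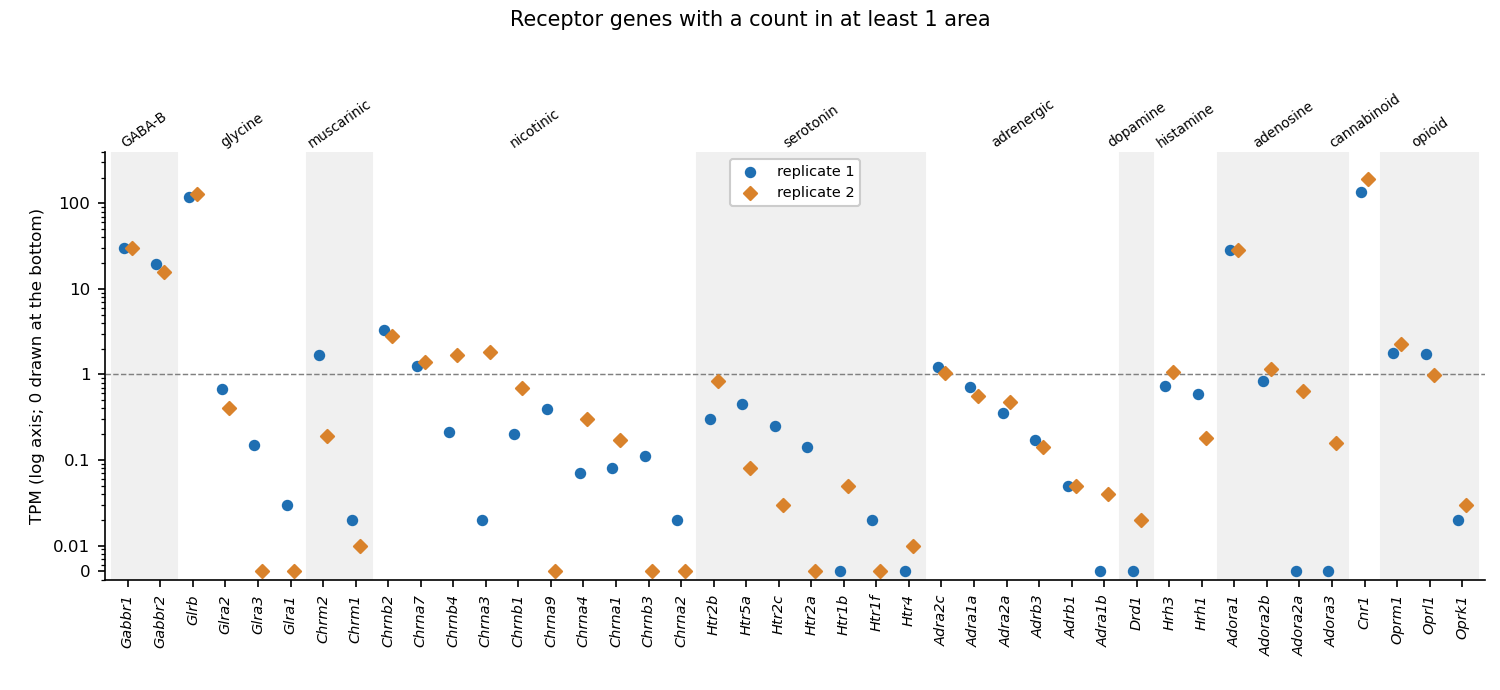
Level in TPM on a log axis of the reported receptor genes with a count in at least 1 area, grouped by receptor class, with 1 point for each of the 2 areas and a dashed line at 1 TPM. A value of 0 is drawn at the bottom edge, and only Cnr1, Glrb, Gabbr1, Adora1 and Gabbr2 stand above 5 TPM in both areas.

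Both subunits of the GABA-B receptor were present, and the receptor needs both: Gabbr1 encodes the subunit that binds GABA and Gabbr2 the subunit that couples to G proteins and carries the pair to the cell surface. Gabbr1 (ENSMUSG00000024462.13, chr17:37045966-37075067 on the plus strand of GRCm38) was at 30.2 TPM in replicate 1 and 29.98 TPM in replicate 2, from 1348 and 1332 counts. Gabbr2 (ENSMUSG00000039809.9, chr4:46662305-46991873, minus strand) was at 19.3 TPM in replicate 1 and 15.7 TPM in replicate 2, from 1868 and 1478 counts. Gabbr1 was thus nearly equal in the areas and Gabbr2 was lower in replicate 2. On the TPM scale Gabbr1 exceeded Gabbr2 in each area, by 1.56-fold in replicate 1 and 1.90-fold in replicate 2, an order that turned when only the transcripts of its long forms were summed, as given with its transcripts.

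Gabbr1 is known for 2 proteins made from different starts, GABA-B1a, which carries a pair of sushi domains at its N terminus and is linked to axon terminals, and the shorter GABA-B1b. In the annotation Gabbr1-201 encodes 960 residues and Gabbr1-203 encodes 844. They share 2387 coding bases, while 493 coding bases (164 whole residues) belong to Gabbr1-201 alone and 145 (48 whole residues) to Gabbr1-203 alone. The last 90 bases of each transcript's own coding part are printed next in lower case with the first 30 shared bases in capitals, because the 2 proteins part at this junction. The lower-case bases of Gabbr1-201 lie within chr17:37048538-37049797 and are spliced, those of Gabbr1-203 are chr17:37050909-37050998, and the capitals are chr17:37050999-37051028 (GRCm38, plus strand, 5′ to 3′).
Gabbr1-201: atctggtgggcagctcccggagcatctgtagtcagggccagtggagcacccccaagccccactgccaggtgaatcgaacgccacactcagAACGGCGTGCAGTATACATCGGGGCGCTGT
Gabbr1-203: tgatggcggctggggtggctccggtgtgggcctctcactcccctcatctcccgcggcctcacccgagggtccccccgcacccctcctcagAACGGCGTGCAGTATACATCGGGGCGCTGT

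Of these forms the shorter, Gabbr1-203, was the higher in both areas. Gabbr1-203 was at 11.4 TPM in replicate 1 and 10.1 TPM in replicate 2, which was 37.7% and 33.6% of the gene's transcripts. Gabbr1-201, the form with the longer N terminus, was at 2.56 TPM in replicate 1 and 3.70 TPM in replicate 2, or 8.49% and 12.3%. The largest share went to another annotated transcript, Gabbr1-202, which at 1460 bases is short, ends at position 37049467, upstream of the shared part, and encodes 229 residues. Gabbr1-202 was at 14.6 TPM in replicate 1 and 15.3 TPM in replicate 2, or 48.4% and 51.1% of the gene's transcripts. Gene-level TPM for Gabbr1 therefore includes a transcript that lacks the transmembrane part, and in counts, where length is not divided out, Gabbr1-202 held 341 of 1348 in replicate 1 and 347 of 1332 in replicate 2. Reads were divided among the forms by the counting program: the deposited posterior standard deviation was 37.7 counts for Gabbr1-201 and 38.9 counts for Gabbr1-203 in replicate 1. All counts of Gabbr2 lay on 1 transcript, Gabbr2-201. Gabbr1-201 and Gabbr1-203 together summed to 13.9 TPM in replicate 1 and 13.8 TPM in replicate 2, below Gabbr2 in both areas, so the higher gene-level value of Gabbr1 rests on Gabbr1-202.

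**Figure D2:**
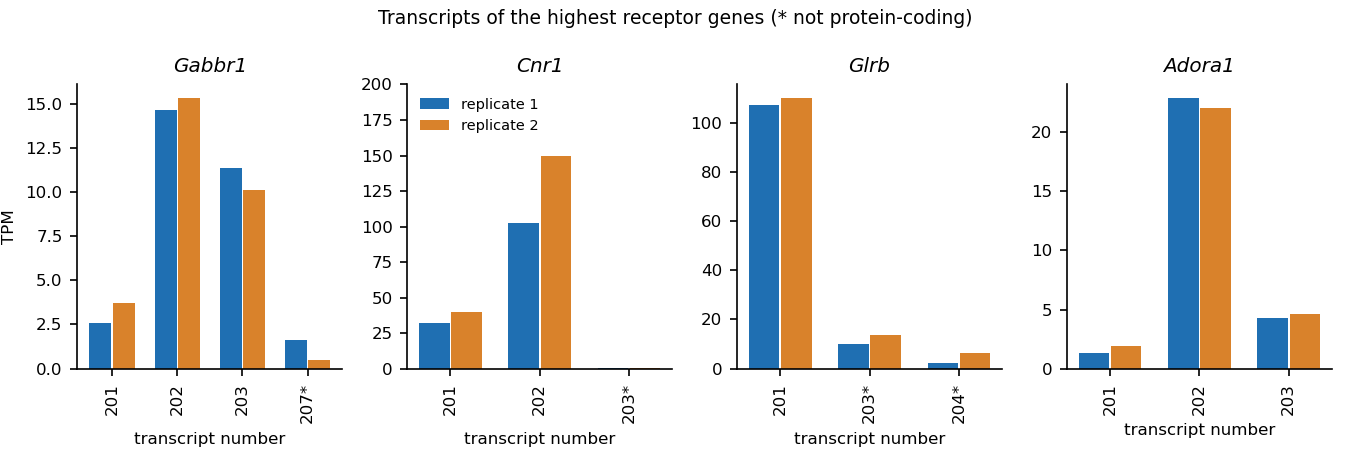
TPM of the transcripts of Gabbr1, Cnr1, Glrb and Adora1 above 0.5 TPM in at least 1 area, with 1 bar per area from 0 and a separate axis for each gene. An asterisk marks transcripts that are not protein-coding, and in Gabbr1 transcript 202 is the highest and 203 lies above 201 in both areas.

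Genes that act beside the GABA-B and other inhibitory G protein-coupled receptors were mostly detected. Of 11 partner genes, which cover KCTD subunits of the GABA-B receptor, G protein-gated potassium channels, glycine receptor scaffolds and a CB1-binding protein, 8 were detected in both areas and 1 had no count. For this and each later list, the share of all protein-coding genes detected in both areas was 50.4%. Kctd8, an auxiliary subunit of the GABA-B receptor, was at 12.4 TPM in replicate 1 and 15.8 TPM in replicate 2, and Kctd12, another, was at 17.1 and 18.9 TPM. Kcnj3, which encodes the channel subunit GIRK1, was at 51.8 and 56.9 TPM, above both GABA-B subunits in each area. On the ligand side, 8 of 11 genes for making, moving and degrading GABA and glycine were detected in both areas. Gad1, which makes GABA, was at 20.9 TPM in replicate 1 and 18.3 TPM in replicate 2, and Gad2, the other GABA-synthesising enzyme, was at 7.47 and 4.07 TPM. Abat, which degrades GABA, was the highest of that list at 31.8 and 26.4 TPM.

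The glycine receptor was seen almost only through its beta subunit. Glrb (ENSMUSG00000028020.12, chr3:80843599-80913660, minus strand) was at 119.8 TPM in replicate 1 and 130.2 TPM in replicate 2, from 5589 and 5785 counts, and ranked 986 among the protein-coding genes. It encodes the subunit that binds the scaffold gephyrin, but glycine-gated channels are known to need alpha subunits, encoded by Glra1 to Glra4. Glra2 was the highest alpha gene at 0.67 TPM in replicate 1 and 0.41 TPM in replicate 2, from 35 and 21 counts. Glra3 had 5 counts and Glra1 had 1 count in replicate 1 with none in replicate 2, and Glra4 had none in either. The 4 alpha genes together summed to 0.85 TPM in replicate 1 and 0.41 TPM in replicate 2, so Glrb stood 179-fold above Glra2 in replicate 1 and 317-fold in replicate 2. Gphn, which encodes gephyrin, was at 54.7 TPM in replicate 1 and 55.1 TPM in replicate 2. The full-length Glrb-201, of 496 residues, made up 89.5% of the gene's transcripts in replicate 1 and 84.6% in replicate 2, and Glrb-203, annotated as a target of nonsense-mediated decay, made up 8.23% and 10.4%.

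Cnr1, which encodes the CB1 cannabinoid receptor, was the highest of the 70 genes. Cnr1 (ENSMUSG00000044288.6, chr4:33924593-33948831, plus strand) was at 135.2 TPM in replicate 1 and 189.9 TPM in replicate 2, from 13095 and 17905 counts, and ranked 753 among the protein-coding genes by mean level. It was higher in replicate 2 and held 42.4% of the receptor genes' summed TPM averaged over the areas. Its 2 main transcripts encode the same 473 residues: Cnr1-202 took 75.9% of the gene's transcripts in replicate 1 and 78.8% in replicate 2, and Cnr1-201 took 23.7% and 20.98%. Cnr2, the CB2 receptor gene known mainly from immune cells, had no count in either area.

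The enzymes of endocannabinoid turnover were detected for 7 of 9 genes. Mgll, which degrades the endocannabinoid 2-AG, was at 100.9 TPM in replicate 1 and 67.2 TPM in replicate 2, the opposite order to Cnr1. Abhd12 and Abhd6, further 2-AG hydrolases, were at 63.9 and 34.2 TPM in replicate 1 and at 55.9 and 38.0 TPM in replicate 2. Dagla, which encodes the main 2-AG synthase of neurons, was below the limit at 0.34 TPM in replicate 1 and 0.43 TPM in replicate 2, whereas Daglb, a related synthase, was at 13.8 and 16.7 TPM. Cnrip1, which encodes a protein that binds the CB1 tail, was at 79.1 TPM in replicate 1 and 82.9 TPM in replicate 2.

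Among adenosine receptors the inhibitory A1 receptor dominated. Adora1 (ENSMUSG00000042429.8, chr1:134199223-134235431, minus strand) was at 28.5 TPM in replicate 1 and 28.6 TPM in replicate 2, from 2321 and 2244 counts. These values were nearly equal, and they lay close to those of Gabbr1, which exceeded Adora1 by 1.06-fold in replicate 1 and 1.05-fold in replicate 2. Adora1 shares 1162 exon bases with Mybph on the opposite strand, but Mybph held only 2.38 counts in replicate 1 and 0 in replicate 2. All 3 expressed transcripts of Adora1 encode the same 326 residues, and Adora1-202 made up 80.3% of them in replicate 1 and 77.3% in replicate 2. Adora2b, which couples to stimulatory G proteins, was at 0.84 TPM in replicate 1 and 1.17 TPM in replicate 2 and so was detected only in the latter. Adora2a, best known from the striatum, had 0 counts in replicate 1 and 26 counts (0.64 TPM) in replicate 2. Adora3 had 0 and 3 counts and shares 779 exon bases with Tmigd3 on the same strand, so its value is uncertain.

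Of 9 genes that form, move or remove adenosine, 4 were detected in both areas. Adk, which removes adenosine by phosphorylating it, was the highest at 38.6 TPM in replicate 1 and 40.4 TPM in replicate 2. Slc29a1, an adenosine transporter, was at 15.99 and 18.3 TPM, and Entpd2, an ectonucleotidase, was at 2.96 and 2.39 TPM. Nt5e, which encodes the ecto-nucleotidase CD73, was below the limit at 0.52 TPM in replicate 1 and 0.43 TPM in replicate 2, and Entpd1, which encodes CD39, passed it in replicate 1 alone at 1.94 TPM against 0.95 TPM.

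Acetylcholine receptors were low in both branches. The 16 nicotinic subunit genes summed to 5.65 TPM in replicate 1 and 8.89 TPM in replicate 2 (7.27 ± 2.29 TPM, SD, n = 2), with 2 detected in both areas, 2 in replicate 2 alone and 6 without a count. Chrnb2, the beta subunit of the common brain receptor with alpha 4, was the highest at 3.29 TPM in replicate 1 and 2.81 TPM in replicate 2, from 298 and 247 counts. In GENCODE M21 the counted transcript Chrnb2-201 shares 1014 exon bases with Adar on the opposite strand, but it is 6399 bases long there and 5384 in the deposited tables, so how much of the overlap was counted is not known. Adar held 717 and 526 counts. Its usual partner Chrna4 was below the limit at 0.07 TPM in replicate 1 and 0.30 TPM in replicate 2, from 5 and 22 counts. Chrna7, whose product can form a channel alone, was at 1.26 TPM in replicate 1 and 1.39 TPM in replicate 2, from 43 and 46 counts.

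A pair of neighbouring nicotinic genes was nearly absent from replicate 1. Chrna3 was at 0.02 TPM in replicate 1 and 1.85 TPM in replicate 2, from 1 and 93 counts. Chrnb4 was at 0.21 TPM in replicate 1 and 1.67 TPM in replicate 2, from 12 and 94 counts. Their products combine into the receptor known from autonomic ganglia, and the genes lie 1591 bases apart on the minus strand of chromosome 9 (Chrna3 at chr9:55010111-55026562 and Chrnb4 at chr9:55028154-55048779, GRCm38). Chrna5, the third gene of this cluster, 2331 bases beyond Chrna3, had no count in either area. Other nicotinic genes below the limit were Chrna1, Chrna2, Chrna9, Chrnb1 and Chrnb3, and those without a count besides Chrna5 were Chrna6, Chrna10, Chrnd, Chrne and Chrng.

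Among the 5 muscarinic receptors only Chrm2 passed the limit, and only in replicate 1. Chrm2, which encodes the M2 receptor that couples to inhibitory G proteins, was at 1.69 TPM in replicate 1 and 0.19 TPM in replicate 2, from 120 and 18 counts. Chrm2 shares 142 exon bases with the opposite-strand gene 9330158H04Rik, which had 21 counts in replicate 1 and 0 in replicate 2. Chrm1 was below the limit at 0.02 and 0.01 TPM, and Chrm3, Chrm4 and Chrm5 had no count. The genes for making and packaging acetylcholine were missing as well: Chat and Slc18a3 had no count in either area. Ache, the enzyme that degrades acetylcholine, was the 1 gene of 5 on this list detected in both areas, at 5.48 TPM in replicate 1 and 5.28 TPM in replicate 2, and Bche, a related esterase, was at 0.93 and 0.46 TPM. Of 9 chaperones and binding proteins of nicotinic receptors 5 were detected in both areas, and the leading ones exceeded Chrnb2 on the TPM scale. Ric3, a chaperone in nicotinic receptor assembly, was at 89.1 TPM in replicate 1 and 72.4 TPM in replicate 2. Tmem35a, also known as NACHO, was at 29.0 and 33.3 TPM. Ly6e and Lynx1, of the Ly6 family of receptor-binding proteins, were at 112.9 and 65.1 TPM in replicate 1 and at 111.0 and 64.3 TPM in replicate 2.

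The receptors for monoamines were low throughout. Adrenergic receptors, with 9 genes, summed to 5.24 TPM in replicate 1 and 2.99 TPM in replicate 2. Adra2c, an inhibitory alpha 2 receptor, was the 1 adrenergic gene detected in both areas, at 1.22 TPM in replicate 1 and 1.03 TPM in replicate 2, from 65 and 53 counts. Adra1a, Adra1b, Adra2a, Adrb1 and Adrb3 were below the limit at mean levels of at most 0.635 TPM, the highest mean of any gene below it, and Adra1d and Adra2b had no count.

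No serotonin receptor and no dopamine receptor passed the limit. The 14 serotonin receptor genes summed to 1.16 TPM in replicate 1 and 1.00 TPM in replicate 2, with 7 genes below the limit and 7 without a count. The highest, Htr2b, was at 0.30 TPM in replicate 1 and 0.83 TPM in replicate 2, from 10.3 and 20 counts, and it shares 252 exon bases with the far more abundant Psmd1 on the opposite strand. Htr5a was at 0.45 TPM in replicate 1 and 0.08 TPM in replicate 2, from 42 and 7 counts. Htr1b, Htr1f, Htr2a, Htr2c and Htr4 were lower still, and Htr1a, Htr1d, Htr3a, Htr3b, Htr5b, Htr6 and Htr7 had no count. Of the 5 dopamine receptor genes, Drd1 had 1 count in replicate 2 and Drd2, Drd3, Drd4 and Drd5 had none. Hrh3, which encodes an inhibitory histamine receptor, was the highest of 4 histamine receptor genes at 0.74 TPM in replicate 1 and 1.08 TPM in replicate 2, from 33 and 47 counts. Hrh1 was below the limit with 28 and 8 counts, and Hrh2 and Hrh4 had no count.

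These zeros have a limit set by depth. A count of 0 allows up to 3 counts, which for the 27 genes without a count corresponds to between 0.0403 and 0.181 TPM depending on gene length and library. A count of 0 does not exclude levels under these values, and the floor covers counting error only. For some of these genes the deposited upper interval bound on TPM was higher, as for Chrng at 0.813 TPM in replicate 1 and 0.833 TPM in replicate 2. For others, such as Htr1a at 0.0392 and 0.0403 TPM, it lay near the floor. Levels above the floor are therefore not excluded for every gene.

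On the ligand side of the monoamines, 7 of 14 genes were detected in both areas, near the 50.4% of all protein-coding genes. The detected ones were mainly genes of breakdown and transport. Maoa, monoamine oxidase A, was at 12.4 TPM in replicate 1 and 12.2 TPM in replicate 2. Slc18a2, the vesicular monoamine transporter, was at 10.2 and 8.05 TPM, and Ddc, a late enzyme of dopamine and serotonin synthesis, was at 3.04 and 1.08 TPM. Th, which starts catecholamine synthesis, had 0 counts in replicate 1 and 1 count in replicate 2. Tph2, which starts serotonin synthesis in neurons, had 6 and 4 counts, Hdc, which makes histamine, had 1 count in replicate 1, and Dbh, Slc6a2, Slc6a3 and Slc6a4, which mark noradrenaline, dopamine and serotonin neurons, had none.

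The opioid receptors gave values that depend on which transcripts are counted. Oprm1, the mu receptor gene, was at 1.78 TPM in replicate 1 and 2.24 TPM in replicate 2, from 34 and 47 counts, and was called detected in both areas. Of these counts 88.9% lay on transcripts that are not annotated as protein-coding, and the protein-coding transcripts of Oprm1 held 3 counts in replicate 1 and 6 in replicate 2. The transcript with the most counts, Oprm1-218, is annotated for nonsense-mediated decay and held 22 and 21 counts, and it and Oprm1-223 overlap exons of Ipcef1 on the opposite strand, a gene with 2084 and 2147 counts. When detection was limited to protein-coding transcripts, an alternative chosen after seeing the data, Oprm1 was not detected and the count over the 70 genes was 8. Oprl1, the nociceptin receptor gene, was at 1.71 TPM in replicate 1 and 0.98 TPM in replicate 2, with 98.9% of its counts on transcripts not annotated as protein-coding. Oprk1, the kappa receptor gene, was below the limit at 0.02 and 0.03 TPM, and Oprd1, the delta receptor gene, had no count.

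Genes for opioid peptides and their processing ranged from 0 to above the highest receptor. Penk, which encodes the enkephalin precursor, was at 137.4 TPM in replicate 1 and 71.1 TPM in replicate 2, while Pdyn, the dynorphin precursor, had no count. Cpe and Pcsk2, enzymes that process such precursors, were at 300.8 and 43.6 TPM in replicate 1 and at 310.9 and 45.2 TPM in replicate 2. Of the 7 genes on this list 4 were detected in both areas. The kinases, arrestins and sorting proteins that turn off G protein-coupled receptors were detected in both areas for 9 of 9 matched genes. Among them Gprasp1 was at 59.4 TPM in replicate 1 and 53.0 TPM in replicate 2, Gprasp2 at 28.4 and 23.8 TPM, Grk3 at 16.7 and 14.7 TPM, and Grk2 at 11.1 and 12.9 TPM.

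**Figure D3:**
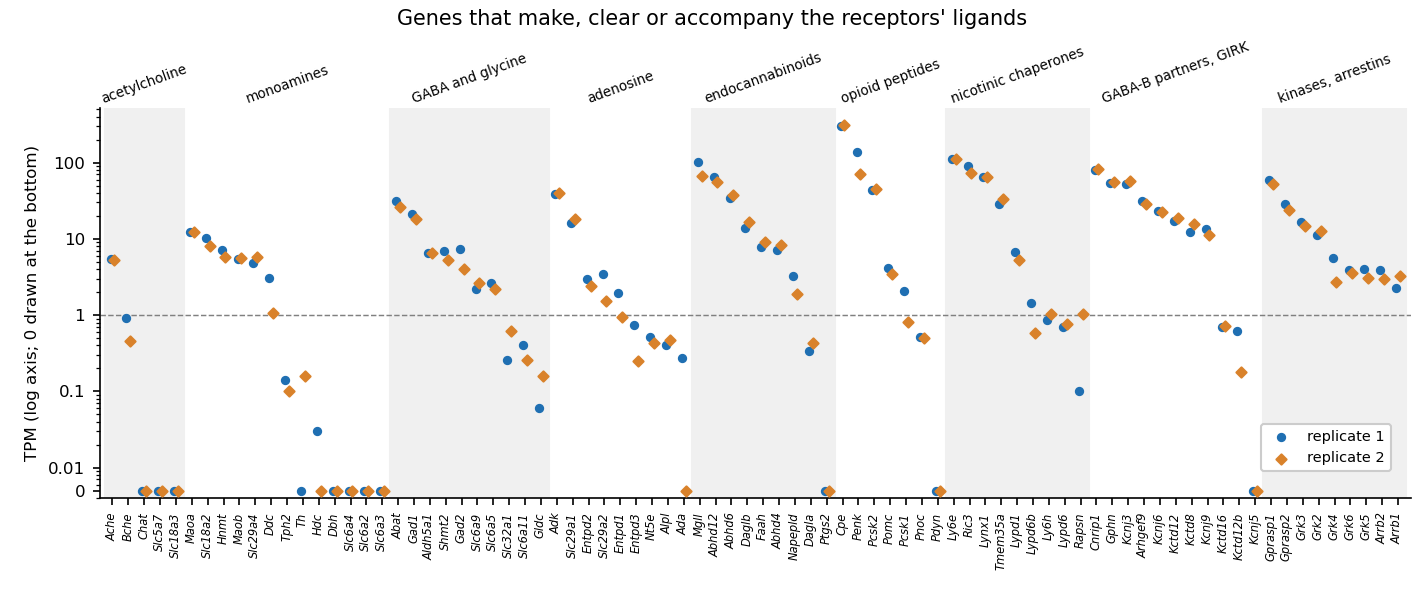
TPM on a log axis of the genes reported from the 9 lists of ligand-handling and receptor partner genes, with 1 point per area and a dashed line at 1 TPM. Breakdown and processing genes such as Cpe and Mgll lie above 60 TPM, while Chat, Slc18a3 and Pdyn are at 0 in both areas.

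By class, the order of summed TPM was cannabinoid, glycine, GABA-B, adenosine, nicotinic, adrenergic, opioid, histamine, serotonin, muscarinic and dopamine by the mean of both areas. Cannabinoid receptors gave 135.2 TPM in replicate 1 and 189.9 TPM in replicate 2 (163 ± 38.7 TPM, SD, n = 2), and glycine receptor subunits gave 120.7 and 130.6 TPM (126 ± 6.99 TPM). The means of these leading classes differed by less than the SD of the cannabinoid class, so their order does not exceed the spread between areas, although it was the same in both. GABA-B subunits gave 49.5 and 45.7 TPM and adenosine receptors 29.4 and 30.5 TPM. At gene level the gaps between glycine, GABA-B and adenosine classes exceeded the spread of each. The GABA-B sum includes the short Gabbr1-202, at 14.6 TPM in replicate 1 and 15.3 TPM in replicate 2. With only Gabbr1-201 and Gabbr1-203 (13.9 and 13.8 TPM) beside Gabbr2 (19.3 and 15.7 TPM), GABA-B stood above adenosine receptors in replicate 1 but not in replicate 2. Muscarinic receptors gave 1.71 TPM in replicate 1 and 0.20 TPM in replicate 2, so among histamine, serotonin and muscarinic receptors the order was not the same in both areas. Nor was it for adrenergic and opioid receptors, the latter at 3.51 TPM in replicate 1 and 3.25 TPM in replicate 2.

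Whether the areas differed by more than counting error was tested on rounded expected counts by an exact binomial test (two-sided), with Benjamini-Hochberg adjustment over the 16636 genes that had a summed count of at least 10. The test compares these 2 libraries, not conditions. Of the 70 receptor genes 27 could be tested, and 13 of them (48.1%) passed the adjusted threshold of 0.05, against 47.6% of all genes tested. In 6 the level was higher in replicate 1, against 24.0% of all genes, and in 7 it was higher in replicate 2, against 23.7%. These shares are near the background. The median log2 ratio of TPM + 1, replicate 2 over replicate 1, was 0.08 over the 27 genes and -0.01 over all genes tested. The median absolute log2 ratio was 0.26 against 0.21, and 4 of the 27 genes (14.8%) differed more than 2-fold on this scale against 3.16% of all genes. These 2 shares are not matched for count. At summed counts of 10 to under 100 it was 1 of 16 receptor genes (6.25%) against 7.64% of all genes tested. In the next range of summed count it was 3 of 6 (50.0%) against 2.73%, so the excess rested on few genes. In the highest range, which held Cnr1, Glrb, Gabbr1, Adora1 and Gabbr2, it was 0 of 5 against 0.148%.

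Among the 4 receptor genes that differed more than 2-fold were Chrna3, Chrnb4 and Chrm2, all under 3 TPM in both areas. The count of Chrna3 relative to the library was 96.4 times as high in replicate 2 (95% counting interval 16.9 to 3850), a ratio that rests on 1 count in replicate 1, and the exact binomial adjusted p was 1.38e-25. Chrnb4 was 8.12 times as high in replicate 2 (4.44 to 16.3), with an exact binomial adjusted p of 4.26e-16. Chrm2 was 6.43 times as high in replicate 1 (3.90 to 11.2), with an exact binomial adjusted p of 2.18e-17. Adora2a, with 0 counts in replicate 1, was higher in replicate 2, and the lower limit of its 95% counting interval was 6.80-fold. Other tested genes beyond counting error and below the limit were Htr5a and Hrh1, higher in replicate 1, and Chrna4 and Chrnb1, higher in replicate 2. Oprl1 was 1.96 times as high in replicate 1 (1.29 to 3.02).

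Among the 5 abundant genes the differences were small. Cnr1 was 1.42 times as high in replicate 2 (1.39 to 1.45, exact binomial adjusted p = 2.91e-201), Gabbr2 was 1.22 times as high in replicate 1 (1.14 to 1.31, exact binomial adjusted p = 1.29e-07), and Glrb was 1.07 times as high in replicate 2 (1.03 to 1.11, exact binomial adjusted p = 0.000739). For Gabbr1 the ratio was 1.02 with an interval of 0.949 to 1.11 (exact binomial adjusted p = 0.655), and for Adora1 it was 1.00 with an interval of 0.945 to 1.06 (exact binomial adjusted p = 0.981). With every count divided by 10, an allowance for copies made by amplification, only Cnr1 of the 27 genes still passed. Of all genes tested 0.703% did. Amplified reads without molecular tags are not independent molecules, so these intervals cover counting error only.

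**Figure D4:**
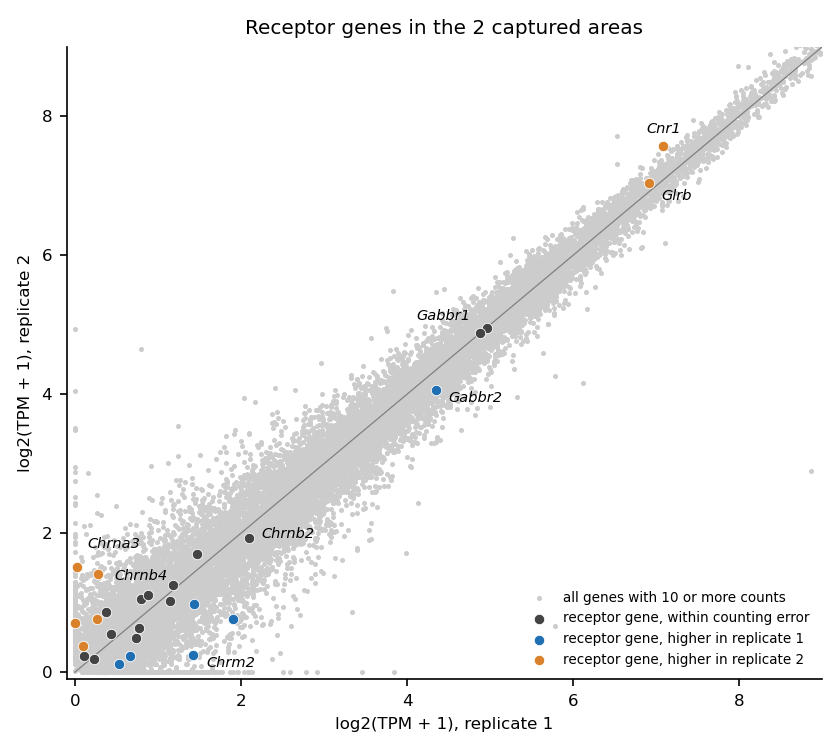
Log2 of TPM + 1 in replicate 1 against replicate 2, with grey points for all genes with a summed count of at least 10 and coloured points for the 27 receptor genes tested; the diagonal marks equal levels and the axes end at 9. Cnr1 and Glrb lie highest near the diagonal, while Chrna3 and Chrnb4 lie above it and Chrm2 below it at low level.

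Markers of other cells moved between the areas too. Higher in replicate 1 were 7 of 7 endothelial, 5 of 5 blood, 7 of 8 microglial, 7 of 8 astrocyte and 7 of 8 Golgi cell and interneuron markers, the Golgi list including Npy, at 0 in replicate 2. Higher in replicate 2 were 8 of 8 oligodendrocyte, 6 of 8 mural, 5 of 8 Purkinje cell and 8 of 10 granule neuron markers. These counts take any difference in TPM. Beyond counting error, 6 endothelial, 5 blood, 5 microglial, 4 astrocyte and 4 Golgi cell and interneuron markers were higher in replicate 1. In replicate 2 it was 7 oligodendrocyte, 5 mural, 4 Purkinje cell and 6 granule neuron markers. Against these directions went 1 microglial, 1 Golgi, 2 mural and 2 Purkinje cell markers. Over all genes tested the shares were 24.0% and 23.7%. The mural markers summed to 37.3 TPM in replicate 1 and 54.1 TPM in replicate 2. Their smooth muscle genes Acta2 and Tagln were at 0 in replicate 1 and at 6.35 and 4.28 TPM in replicate 2. In the same list 2 markers went the other way. Rgs5, the highest of the list, was at 27.9 TPM in replicate 1 and 19.9 TPM in replicate 2, and Kcnj8 at 1.70 and 0.63 TPM. Unipolar brush cell markers summed to 240 and 267 TPM, with Lmx1a at 0 in replicate 2. The part of these cells in the differences of Chrna3, Chrnb4, Chrm2, Gabbr2 and Cnr1 was not tested.

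The receptor genes were also compared by features that the rule did not use. In 19 of the 70 the longest coding sequence lies in a single exon, among them Cnr1 and Adra2c of the 9 genes detected in both areas. RefSeq promoter windows on GRCm38.p6 were matched for 54 of the 70 genes. The ratio of observed to expected CG dinucleotides was at least 0.6 in 26 of these 54 (48.1%). It was so in 5 of the 9 genes detected in both areas (55.6%) and in 10 of 21 genes without a count (47.6%). Over all 27025 genes with such windows the share was 38.4%, but that set is not limited to protein-coding genes as the receptor genes are. Glrb, Gabbr2 and Cnr1 had ratios of 0.96, 0.96 and 0.93, whereas Gabbr1 had 0.57. Several subunit genes are neighbours, and in the pairs Chrnd and Chrng, and Htr3a and Htr3b, both genes had no count, while of Chrnb3 and Chrna6 only Chrnb3 had any, with 8 counts in replicate 1.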

How the data were processed

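Per the file headers, the deposited tables give expected counts (estimated reads shared among similar genes), TPM, FPKM, posterior mean TPM, score columns (interval bounds on TPM and the count's posterior standard deviation) and, for transcripts, each form's percent of its gene. Per the deposited notes, the authors aligned reads to mm10 and its transcriptome with GENCODE M4. For the aligner, counting program and strand setting, no name or version is given in the sources used here. Names and coordinates come from GENCODE M21 (GRCm38, equal to mm10) by gene ID (42462 of 43346 matched). M21 is later than M4, so transcript types can differ. Posterior standard deviations were 0 for 67 of the 70 receptor genes.

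Expected counts were rounded for the exact binomial test (threshold 0.05, scaled to library totals). Each replicate stands for 1 area, and p-values measure only the spread of reads between these libraries. Members and lists were chosen with earlier results of these data known. Named with values were genes detected in 1 or both areas, the highest of each class, the 5 with the largest absolute log2 ratio, and the 3 highest and first 2 genes of each pathway list. Glra1, Glra2, Glra3, Chrm1, Chrna4, Htr5a, Hrh1, Adora3, Oprk1, Chrnb3, Tph2, Hdc, Dbh, Slc6a2, Slc6a3, Slc6a4, Npy, Lmx1a, Acta2, Tagln, Rgs5 and Kcnj8 were added after their values were seen. Some genes that this rule names are not reported here, though class and list counts include them. Adrbk1 and Adrbk2, older names of Grk2 and Grk3, matched nothing. The exact binomial test was tried on simulated counts that held counting error only, so its error rate on amplified reads was not tested. Alternatives covered detection limits, FPKM, posterior means, scale factors from edgeR 4.0.16 and DESeq2 1.42.0, low-count filters, pseudocounts and each replicate alone. Python 3.11.15, pandas 2.3.3, numpy 2.4.6, SciPy 1.17.1, matplotlib 3.10.9 and R 4.3.3 were used.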

Additional observations from a re-analysis of the deposited data

How the results depend on the processing

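No paired analysis was possible because there is only 1 group. The count of receptor genes detected in both areas was 9 of 70, against 50.4% of protein-coding genes. It became 14 with a limit of 0.5 TPM (54.2% of protein-coding genes) and 5 with a limit of 5 TPM (37.0%). It was 11 by posterior mean TPM (52.1%) and 8 by FPKM (49.3%), where Adra2c was lost. Without replicate 1 and without replicate 2 it was 13 and 12, against 52.2% and 52.5%. The count beyond counting error was 13 with library totals, with TMM and with size factors, where 47.6%, 47.6% and 47.7% of all genes tested passed. With no count filter it was 14, where 16.1% of all genes passed. With counts divided by 10 it was 1, where 0.703% of all genes tested passed. The median log2 ratio was 0.08 and became 0.0 with no filter, where genes without a count enter. As a percent of the receptor genes' summed level, counts without length gave 20.9 for glycine against 32.8 by TPM, 56.0 for cannabinoid against 42.0, 8.53 for adenosine against 7.84, 0.183 for serotonin, 0.213 for histamine and 0.351 for opioid receptors. Posterior mean TPM, chosen after seeing the data for classes, gave 2.55 for nicotinic against 1.87, 0.577 for serotonin, 0.0459 for dopamine, 0.518 for histamine and 1.55 for opioid receptors against 0.889. The cause was not tested. Oprm1 had a posterior mean of 3.92 TPM, above its reported mean. The order of low classes turned: posterior means put opioid above adrenergic receptors (1.18) and serotonin above histamine receptors, and counts without length put muscarinic receptors (0.273) above both histamine and serotonin. Gabbr1 was higher in replicate 1 by TPM and in replicate 2 by scaled count, within counting error. Depth limits the 27 genes without a count, and 2 areas of 1 group allow no test between conditions.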
